A study of Homo sapiens with 4 samples.

Results

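The tight junction genes described here were 9 genes chosen by name from the 25317 gene symbols of the deposited tables: the claudins CLDN1, CLDN4, CLDN7 and CLDN8, the MARVEL proteins occludin (OCLN), MARVELD2 and MARVELD3, and the ZO scaffolds TJP1 and TJP3. All 9 were found. RNA was sequenced from MCF10A, a human breast epithelial cell line that is established and non-tumorigenic, in 4 groups of 1 library each, which carried an empty lentiviral vector (EV), Zeb1, Snail or Ovol2. Zeb1 and Snail induce the epithelial-to-mesenchymal transition and Ovol2 the opposite transition, per the series title. All groups were grown with horse serum, epidermal growth factor, cholera toxin and insulin, received the pHIV-ZsGreen vector, and were sorted for green fluorescence 6 days after infection, so each library is the pool of sorted cells of 1 line. Whether the delivered coding sequences were human, and which promoter drove them, was not stated in the material used.

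Tight junctions seal the space between neighbouring epithelial cells near their apical edge. Claudins, small proteins that cross the membrane several times, form the strands and set which ions pass, while occludin, MARVELD2 (tricellulin) and MARVELD3 belong to the same strands, with tricellulin at the points where several cells meet. TJP1 (ZO-1) and TJP3 (ZO-3) are cytoplasmic scaffolds that bind claudin tails and tie the strands to actin. Zeb1 and Snail are zinc finger repressors that bind E-boxes of the CACCTG type, and loss of tight junction proteins is a known feature of epithelial-to-mesenchymal transition.

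Levels are given in FPKM, fragments scaled to transcript length and library size, so that levels of different genes can be compared. Depth, estimated from the spacing of the lowest values, was between 24150000 and 34300000 fragments per library. The delivered factors matched the labels: ZEB1 was at 17.3 FPKM in its own library and at 0.536 or less in the others, SNAI1 at 99.7 against 0.725 or less, and OVOL2 at 78.3 against 6.32 or less. The 8 epithelial markers summed to 9149 FPKM with the empty vector, 2544 with Zeb1, 7498 with Snail and 5112 with Ovol2. The keratins KRT5 and KRT17 made up most of that sum, and its members differed: in the same order KRT5 was at 2929, 771, 2022 and 215 FPKM, the simple-epithelial keratin KRT8 at 102, 78.1, 147 and 82.7, and EPCAM at 6.61, 1.08, 0.683 and 5.51. The 5 endothelial markers summed to 1.55 FPKM at most, in the Ovol2 library, and the 5 immune markers to 17.0 at most, in the Zeb1 library, where CD14 alone was at 17.0 with CD3E at 0 and PTPRC at 0.0177. In the Ovol2 library, 2 short RNAs, RMRP and RPPH1, held 40.6% of all FPKM, against 18.7% to 24.6% in the others. The 3 mesenchymal markers summed to 107, 4175, 675 and 7.76 FPKM in the order EV, Zeb1, Snail, Ovol2. The part of these shifts in the results below was not tested, and in pooled cells fewer expressing cells and less RNA per cell cannot be told apart. Since each group was 1 library, no difference, and no order of neighbouring levels, could be set against a spread between cultures, and nothing was tested. Differences are given as log2 ratios of (FPKM + 1). Higher and lower calls needed at least a 2-fold ratio on that scale, and at least 1 of the 2 libraries at 1 FPKM. Intervals given with a ratio cover the counting error of estimated fragments only, and not differences between cultures.

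The promoters are shown first because the delivered factors bind DNA and because the 4 genes below had different patterns over the libraries. RefSeq promoter entries (GRCh38.p14) matched 7 of the 9 genes, those without an entry being CLDN8 and MARVELD3, and gave 13 start sites. The 250 bases before each start were searched on both strands for CACCTG, the E-box form of Zeb1 and Snail, and for CCGTTA, the core of the site bound by OVO-like factors. Matches are in capitals, written 5′ to 3′ on the strand of the gene, where a match on the other strand reads CAGGTG or TAACGG. The windows were chr17:7262479-7262728 (minus strand) for CLDN7, chr7:73830746-73830995 (plus strand) for CLDN4, chr3:190322447-190322696 (minus strand) for CLDN1, and chr15:29969050-29969299 (minus strand) for TJP1.
CLDN7: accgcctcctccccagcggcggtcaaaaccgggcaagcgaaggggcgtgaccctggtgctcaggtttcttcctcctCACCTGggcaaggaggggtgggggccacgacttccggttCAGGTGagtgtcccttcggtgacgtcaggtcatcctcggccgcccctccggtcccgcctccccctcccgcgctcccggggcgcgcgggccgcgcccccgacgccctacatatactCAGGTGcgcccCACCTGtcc
CLDN4: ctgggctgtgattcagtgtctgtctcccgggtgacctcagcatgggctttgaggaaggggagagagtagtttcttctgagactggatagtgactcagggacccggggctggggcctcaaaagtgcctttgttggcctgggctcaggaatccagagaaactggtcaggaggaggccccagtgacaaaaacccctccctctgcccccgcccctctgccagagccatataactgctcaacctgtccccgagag
CLDN1: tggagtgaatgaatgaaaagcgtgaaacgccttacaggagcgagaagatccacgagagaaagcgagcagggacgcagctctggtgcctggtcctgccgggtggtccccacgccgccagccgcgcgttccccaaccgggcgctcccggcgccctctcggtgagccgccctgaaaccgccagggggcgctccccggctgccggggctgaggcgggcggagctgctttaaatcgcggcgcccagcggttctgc
TJP1: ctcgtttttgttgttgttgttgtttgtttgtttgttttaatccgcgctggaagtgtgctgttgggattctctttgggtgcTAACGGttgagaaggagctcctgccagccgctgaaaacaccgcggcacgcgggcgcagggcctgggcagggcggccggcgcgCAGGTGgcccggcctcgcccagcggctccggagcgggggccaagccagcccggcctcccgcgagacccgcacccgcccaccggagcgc

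CLDN7 has 1 other window and TJP1 3 others, none with a match, so for these genes the window with matches was printed. The OCLN and TJP3 windows with matches were not printed. The CLDN7 window printed held 4 matches to CACCTG, which began 174, 135, 20 and 9 bases before the start. Of all 35116 promoter windows of this length, 17.5% held at least 1 such match and 0.12% held 4 or more. CLDN4 and CLDN1 had no match to either motif in these windows. The TJP1 window shown had 1 CACCTG match and 1 CCGTTA match, and CCGTTA was found in 2.5% of all windows. In all, 5 of the 13 windows, from 4 genes (CLDN7, OCLN, TJP1 and TJP3), held CACCTG. A match describes these letters only, and binding was not measured.

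CLDN1, the main barrier claudin of skin and of basal epithelia, was the highest of the 9 genes in the EV, Zeb1 and Snail libraries. It stood at 252 FPKM with the empty vector, 63.4 with Zeb1, 127 with Snail and 73.2 with Ovol2. Each factor library was therefore below the EV library, including the Ovol2 library. The log2 ratios to EV were -1.97 for Zeb1, -0.98 for Snail and -1.77 for Ovol2, so that Zeb1 and Ovol2 were called lower and Snail was just short of the 2-fold rule. Snail passed the rule under 4 of the 6 settings. These were centring on the median of well expressed genes (-1.13), upper quartile scaling (-1.135), leaving out RMRP and RPPH1 (-1.03) and the length correction (-1.15). In the EV library CLDN1 exceeded 99.4% of all gene symbols and in the Ovol2 library 97.6%.

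CLDN4, a claudin of simple and differentiating epithelia and the receptor of a bacterial enterotoxin, had its highest level in the Ovol2 library. It was at 8.31 FPKM with the empty vector, 1.92 with Zeb1, 2.93 with Snail and 113 with Ovol2. The Ovol2 library was above every other library and both libraries of the mesenchymal direction were below EV. The plain ratio to EV was 13.6 for Ovol2 (95% counting interval 12.3 to 15.0), 0.231 for Zeb1 (0.186 to 0.282) and 0.353 for Snail (0.292 to 0.420). On the log2 scale these were 3.61, -1.67 and -1.24, each past the 2-fold rule.

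CLDN7, which in many epithelia lies along the lateral membrane as well as in the junction, was at 21.0 FPKM with the empty vector, 13.6 with Zeb1, 7.24 with Snail and 45.2 with Ovol2. Here the Snail library was the lowest. The log2 ratios to EV were -0.59 for Zeb1, -1.42 for Snail and 1.07 for Ovol2. Snail was called lower and Ovol2 higher, and Zeb1 did not pass the rule. The Ovol2 call was lost (0.87) when RMRP and RPPH1 were left out and the libraries rescaled.

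CLDN8, a claudin best known from the kidney and colon, was nearly absent outside the Ovol2 library. It was at 0.0480 FPKM with the empty vector, 0.050 with Zeb1, 0.0148 with Snail and 1.5 with Ovol2. These levels correspond to about 3, 4, 1 and 75 fragments. The ratio of Ovol2 to EV was 31.3 with a counting interval of 9.92 to 149, and the ratios of Zeb1 (1.04, interval 0.191 to 7.72) and Snail (0.307, interval 0.00585 to 3.82) to EV could not be told from 1 at this depth. The log2 ratio for Ovol2 was 1.26, which the added 1 FPKM holds far below the plain ratio. CLDN8 passed the filter on low values through the Ovol2 library alone, so that it could not have been called lower there.

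**Figure D1:**
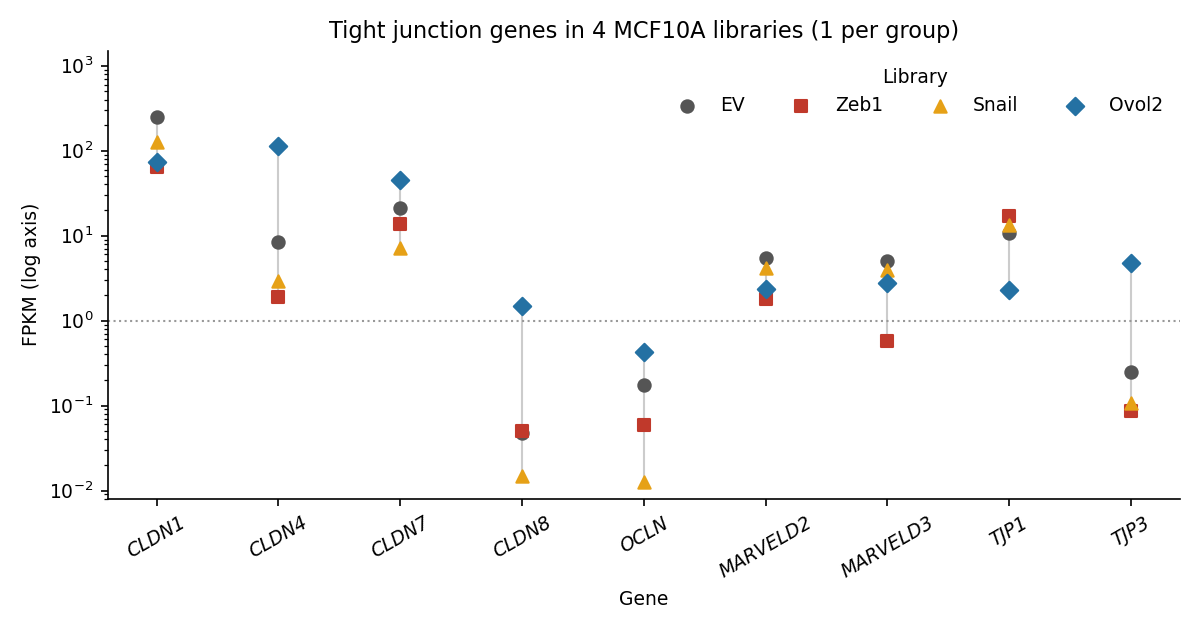
Level of each of the 9 tight junction genes in the 4 libraries (vertical log axis in FPKM, 1 point per library, grey lines join the lowest and highest, dotted line at 1 FPKM). CLDN4, CLDN7, CLDN8, OCLN and TJP3 were highest in the Ovol2 library, CLDN1, MARVELD2 and MARVELD3 in the EV library, and TJP1 in the Zeb1 library.

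The MARVEL proteins had another pattern, with the EV library highest for MARVELD2 and MARVELD3. MARVELD2, the tricellulin of tricellular contacts, was at 5.44 FPKM with the empty vector, 1.80 with Zeb1, 4.19 with Snail and 2.34 with Ovol2. The Zeb1 library was lowest and was called lower (log2 ratio -1.20), while Snail (-0.31) and Ovol2 (-0.95) did not pass the rule. The Ovol2 ratio was past the rule with a pseudocount of 0.1 FPKM (-1.18) and with RMRP and RPPH1 left out (-1.33), and nearer to 0 when centred on the median (-0.50) or corrected for transcript length (-0.28).

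MARVELD3, a relative of occludin, was at 5.08 FPKM with the empty vector, 0.575 with Zeb1, 3.97 with Snail and 2.78 with Ovol2. The Zeb1 library stood far below the others, with a plain ratio to EV of 0.113 (counting interval 0.0811 to 0.156) and a log2 ratio of -1.95. Snail (-0.29) and Ovol2 (-0.69) did not pass the rule. MARVELD3 was also the single gene of the 9 called lower in Zeb1 set directly against Snail (-1.66), where 6.43% of the 11732 kept genes were called lower. Its Zeb1 level was below 1 FPKM. Against EV and against Snail it thus passed the filter through the other library alone, which fixed the direction of any call.

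Occludin, a membrane protein of the strands, was listed at 0.175 FPKM with the empty vector, 0.0584 with Zeb1, 0.0126 with Snail and 0.431 with Ovol2. It was below 1 FPKM in every library and so was not called on these values. With RMRP and RPPH1 left out and each library rescaled to a sum of 1000000, it passed the filter and was called higher in Ovol2 against Snail (1.14, against 0.50 as deposited). That rescaling raised the levels of all remaining genes while the filter and pseudocount stayed at 1 FPKM. The Ovol2 library was highest and the Snail library lowest. About 27, 11, 2 and 56 fragments lay behind these levels, and the ratio of Ovol2 to EV was 2.47 with a counting interval of 1.55 to 4.12. The genome holds a partial copy of OCLN, LOC647859, which was listed at 0 in all 4 libraries, and how the authors assigned reads that match both was not stated, which leaves the OCLN levels uncertain.

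In the Ovol2 library the ZO scaffolds TJP1 and TJP3 lay on opposite sides of EV. TJP1 was at 10.7 FPKM with the empty vector, 17.2 with Zeb1, 13.4 with Snail and 2.29 with Ovol2. The Ovol2 library was lowest, and both libraries of the mesenchymal direction were above EV without passing the rule (0.63 for Zeb1 and 0.30 for Snail). The log2 ratio for Ovol2 was -1.83, called lower. With a correction for the trend of the ratios on transcript length, this came to -0.79 and the call was lost. TJP1 transcripts matched to RefSeq were between 5007 and 7950 bases long.

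TJP3, a scaffold found mainly in epithelial cells, was at 0.247 FPKM with the empty vector, 0.0865 with Zeb1, 0.107 with Snail and 4.77 with Ovol2. It reached 1 FPKM in the Ovol2 library alone, where about 370 fragments lay behind it against 23 in the EV library. The ratio of Ovol2 to EV was 19.4 (counting interval 12.7 to 31.0), and the log2 ratio was 2.21. The ratio of Zeb1 to EV was 0.351 (0.157 to 0.806) and that of Snail to EV 0.435 (0.194 to 0.940), both below the filter and not called.

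**Figure D2:**
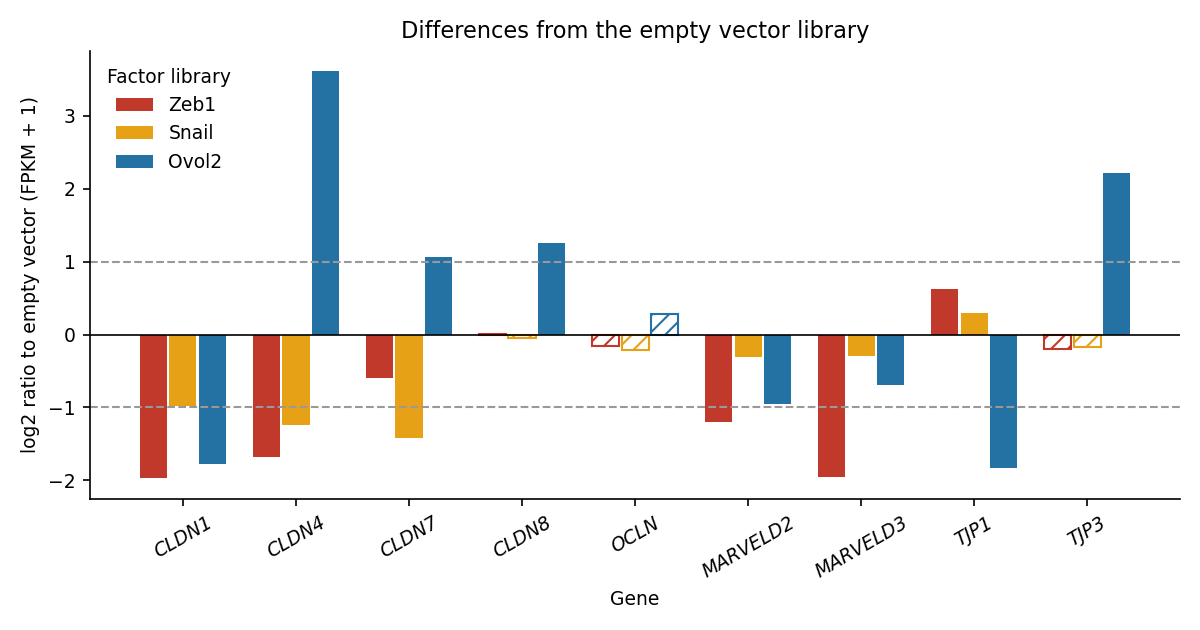
Log2 ratio of (FPKM + 1) in each factor library to the EV library, by gene (bars, 1 library against 1; hatched bars are genes below 1 FPKM in both libraries, dashed lines mark the 2-fold rule). CLDN4 and TJP3 have the tallest bars, 3.61 and 2.21 for Ovol2, and CLDN1 is below 0 in all 3 comparisons.

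In the Zeb1 library, 4 of the 6 genes that passed the filter were lower (CLDN1, CLDN4, MARVELD2 and MARVELD3) and 0 higher, where 8.49% of all 11922 kept genes were lower and 4.52% higher. MARVELD3 was below 1 FPKM with Zeb1 and passed the filter through its EV level alone, which fixed the direction of any call. The median log2 ratio of the 6, MARVELD3 included, was -1.44 against -0.09 over all kept genes. In the Snail library, 2 of 6 were lower (CLDN4 and CLDN7) and 0 higher, where 1.50% of 11644 kept genes were lower and 1.00% higher. The median of the 6 was -0.65 against 0.12. These 3 comparisons share the EV library. An adjusted p-value below 0.05 stood in the authors' deposited table for 8 of the 9 genes with Zeb1, CLDN8 being the exception, and for 9 of 9 with Snail and with Ovol2, where 77.9%, 81.0% and 86.3% of all rows were below it. Those p-values set 1 library against 1 and hold no culture-to-culture spread.

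In the Ovol2 library, 4 of the 8 genes that passed the filter were higher (CLDN4, CLDN7, CLDN8 and TJP3), where 6.82% of 11812 kept genes were higher, and CLDN8 and TJP3 passed the filter only through this library. The 2 lower genes, CLDN1 and TJP1, were a share close to that of all kept genes, of which 25.1% were lower. The median log2 ratio was 0.19 for the 8 genes and -0.51 for all kept genes. The 8 include CLDN8 (1.26) and TJP3 (2.21), whose entry through their Ovol2 level raises this median. The others were at 3.61 (CLDN4), 1.07 (CLDN7), -0.69 (MARVELD3), -0.95 (MARVELD2), -1.77 (CLDN1) and -1.83 (TJP1). The median of the 8 is therefore no result about the set. Centring, which moved the ratios of Ovol2 by 0.45, those of Zeb1 by 0.14 and those of Snail by -0.15, changed the share of all kept genes called higher and lower to 13.4% and 10.1% for Ovol2, 6.21% and 6.19% for Zeb1, and 0.661% and 2.21% for Snail. Relative to that shift the Ovol2 ratios were 4.07 for CLDN4, 1.52 for CLDN7, 2.66 for TJP3, -1.32 for CLDN1 and -1.38 for TJP1, with the calls as before.

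**Figure D3:**
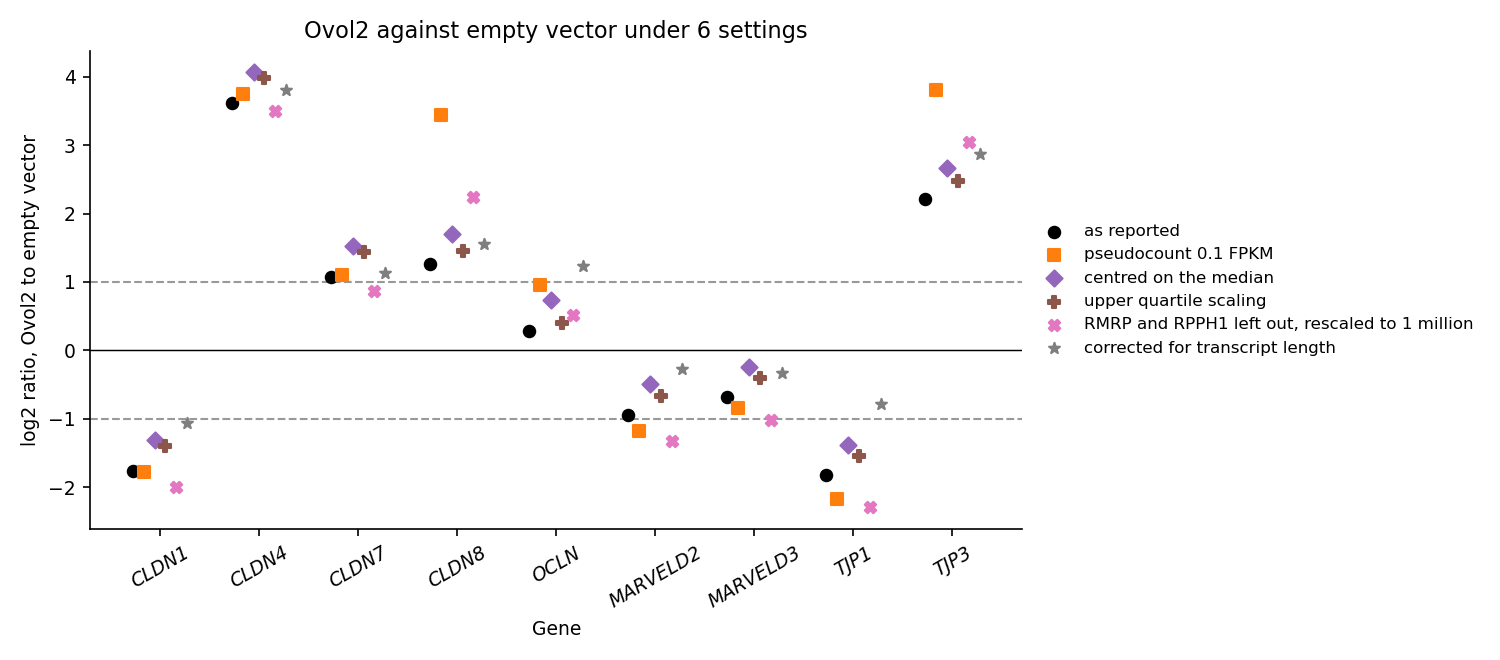
Log2 ratio of the Ovol2 to the EV library for each gene as reported and under 5 other choices of pseudocount, scaling or length correction (1 point per choice, dashed lines at the 2-fold rule). CLDN4, CLDN8 and TJP3 stay above 1 and CLDN1 below -1 throughout, while CLDN7, OCLN, MARVELD2, MARVELD3 and TJP1 have points on both sides of a dashed line.

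Shares within a library do not depend on the scaling between libraries, but they are not corrected for transcript length. With the length correction the Ovol2 to EV log2 ratio of CLDN1 went from -1.77 to -1.06 and that of CLDN4 from 3.61 to 3.815. The part of this trend in the shares was not tested. Of the summed FPKM of the 22 claudins listed, CLDN1 made up 86.1% with the empty vector, 70.3% with Zeb1 and 85.8% with Snail, but 30.2% with Ovol2. CLDN4 made up 2.84%, 2.13%, 1.98% and 46.5% in the same order, and CLDN7 7.18%, 15.1%, 4.89% and 18.6%. The leading claudin was thus CLDN1 in 3 libraries and CLDN4 in the Ovol2 library. The claudin sum itself was 293 FPKM with the empty vector, 90.2 with Zeb1, 148 with Snail and 243 with Ovol2. The ratio of CLDN4 to CLDN1 was 0.0330, 0.0302 and 0.0231 in the EV, Zeb1 and Snail libraries and 1.54 in the Ovol2 library. CLDN4 thus passed CLDN1 in the Ovol2 library alone of the 4.

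The scaffolds TJP1 and TJP3 also differed in order between libraries. TJP1 was above TJP3 in the EV, Zeb1 and Snail libraries and below it in the Ovol2 library. The ratio of TJP3 to TJP1 was 0.0230 with the empty vector, 0.00504 with Zeb1, 0.00801 with Snail and 2.08 with Ovol2. These ratios are not corrected for length either. That correction moved the Ovol2 to EV log2 ratio of TJP1 from -1.83 to -0.79 and that of TJP3 from 2.21 to 2.87. MARVELD2 and MARVELD3 were near parity in the EV and Snail libraries (ratio 1.07 and 1.06) and in the Ovol2 library (0.843), and apart in the Zeb1 library (3.13).

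**Figure D4:**
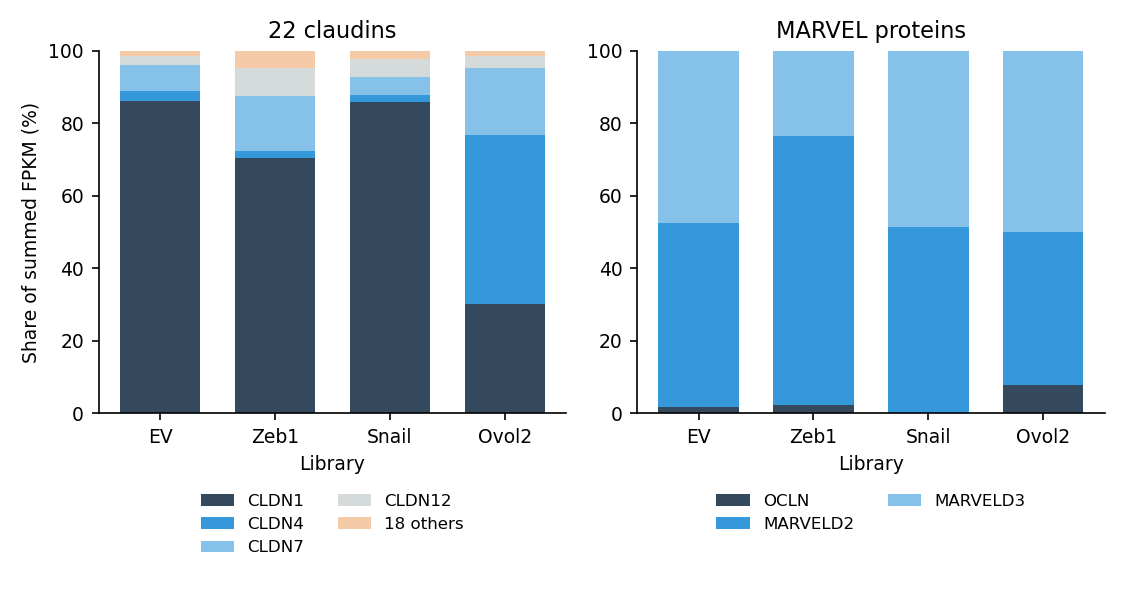
Share of the summed FPKM within 2 families in each library (stacked bars, vertical axis in percent of the family's sum; left 22 claudins, right the MARVEL proteins). CLDN4 fills 46.5% of the claudin bar in the Ovol2 library against 2.84% in EV, and MARVELD2 74.0% of the MARVEL bar in the Zeb1 library against 50.9% in EV.

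Set directly against the Zeb1 library, the Ovol2 library had 5 of 8 kept genes higher (CLDN4, CLDN7, CLDN8, MARVELD3 and TJP3), where 14.4% of 11991 kept genes were higher, and 1 lower (TJP1), where 28.8% were. Of the 5, CLDN8, MARVELD3 and TJP3 were below 1 FPKM with Zeb1 and entered the count through their Ovol2 level alone, which fixed the direction of any call. Centring gave 20.1% higher and 18.6% lower over all kept genes. The highest plain ratios were those of CLDN4 at 58.9 (counting interval 49.3 to 71.5), TJP3 at 55.2 (28.3 to 111) and CLDN8 at 30.1 (9.98 to 100). These intervals overlap, so the order among these genes is not settled by the counts. CLDN1 was at 73.2 and 63.4 FPKM in these 2 libraries (log2 ratio 0.20), and this ratio changed sign (-0.33) when RMRP and RPPH1 were left out. MARVELD2 (0.25) did the same (-0.15).

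Against the Snail library, the Ovol2 library had 4 of 8 higher (CLDN4, CLDN7, CLDN8 and TJP3), where 8.83% of 11843 kept genes were higher, and 1 lower (TJP1), where 32.4% were. CLDN8 and TJP3 again passed the filter only through the Ovol2 library. Centring gave 18.4% higher and 11.8% lower. CLDN4 had a plain ratio of 38.6 (33.2 to 45.4) and CLDN7 one of 6.24 (5.56 to 7.02). In Zeb1 against Snail, 0 of 6 genes were higher, where 2.34% of kept genes were, and CLDN7 stood at 0.83, with CLDN7 called higher (1.10) after centring, which gave 4.46% higher and 2.75% lower over all kept genes. CLDN1 stood at -0.99 in that comparison, just short of the rule.

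The other genes of the junction were taken from a list of 50, of which 49 were in the tables. Of 18 further claudins, 16 were below 1 FPKM in every library, with CLDN23 at 0.726 in the EV library as the highest of them. CLDN3, a close relative of CLDN4, was at 0.0229 FPKM or less in every library, and CLDN5, the claudin of endothelium, at 0.0297 or less. CLDN12 varied least among the claudins that were expressed, at 7.04 FPKM with the empty vector, 6.85 with Zeb1, 7.46 with Snail and 7.49 with Ovol2.

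In the Zeb1 library, 7 of 24 kept genes of this list were lower and 2 higher, with a median log2 ratio of -0.36. Over all kept genes 8.49% were lower and 4.52% higher, with a median of -0.09. The lowest on the log2 scale of (FPKM + 1) were CRB3, the small apical polarity protein (1.39 against 8.57 FPKM, -2.00), LSR, the angulin that brings tricellulin to tricellular contacts (3.74 against 17.7, -1.98), INADL, the multi-PDZ polarity scaffold now called PATJ (4.07 against 13.6, -1.52), and CXADR, the coxsackievirus and adenovirus receptor (0.723 against 3.51, -1.39). This order depends on the added 1 FPKM, and by plain ratio CGN (0.111) was below CRB3 (0.162). The 2 higher were PARD3B, a relative of the polarity protein PAR3 (4.23 against 0.712 FPKM, 1.61), and MPDZ, a multi-PDZ scaffold (6.34 against 2.35, 1.13). LSR was thus lower beside its partner MARVELD2, and F11R, which with CXADR made up the kept genes of the JAM family, was lower too (-1.28) but was just short of the rule with RMRP and RPPH1 left out. MPDZ came to 0.96 with the length correction. CXADR and CGN, the latter also called lower (0.244 against 2.19 FPKM, -1.36), were below 1 FPKM with Zeb1, and PARD3B with EV. Each passed the filter through the other library alone, which fixed the direction of any call.

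In the Snail library, 2 of 23 were lower and 0 higher (median 0.07), namely CRB3 (2.97 against 8.57 FPKM, -1.27) and CXADR (0.892 against 3.51, -1.25). Over all kept genes 1.50% were lower and 1.00% higher, with a median of 0.12. In the Ovol2 library, 7 of 24 were lower and 2 higher (median -0.72), and after centring 0 were lower. Over all kept genes 25.1% were lower and 6.82% higher, with a median of -0.51, so that the list's shares were near those of all genes and are no result about the list. The lowest ratios on the log2 scale of (FPKM + 1), given as values, were those of PRKCI, an atypical protein kinase C (13.0 against 35.9 FPKM, -1.40), MPDZ (0.373 against 2.35, -1.29), PARD3 (5.76 against 14.1, -1.15) and MAGI3 (0.587 against 2.52, -1.15). This order depends on the added 1 FPKM. By plain ratio MPDZ (0.159), MAGI3 (0.233) and MAGI1 (0.272, not called) were below PRKCI (0.361) and PARD3 (0.410). The 2 higher were CRB3 (36.0 against 8.57 FPKM, 1.95) and PARD6A, a PAR6 polarity protein (2.16 against 0.412, 1.16). CRB3 was therefore high in the Ovol2 library and low in the Zeb1 and Snail libraries, as CLDN4 was. CXADR with Snail, MPDZ and MAGI3 with Ovol2, and PARD6A with EV were below 1 FPKM. Each passed the filter through the other library alone, which fixed the direction of any call.

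**Figure D5:**
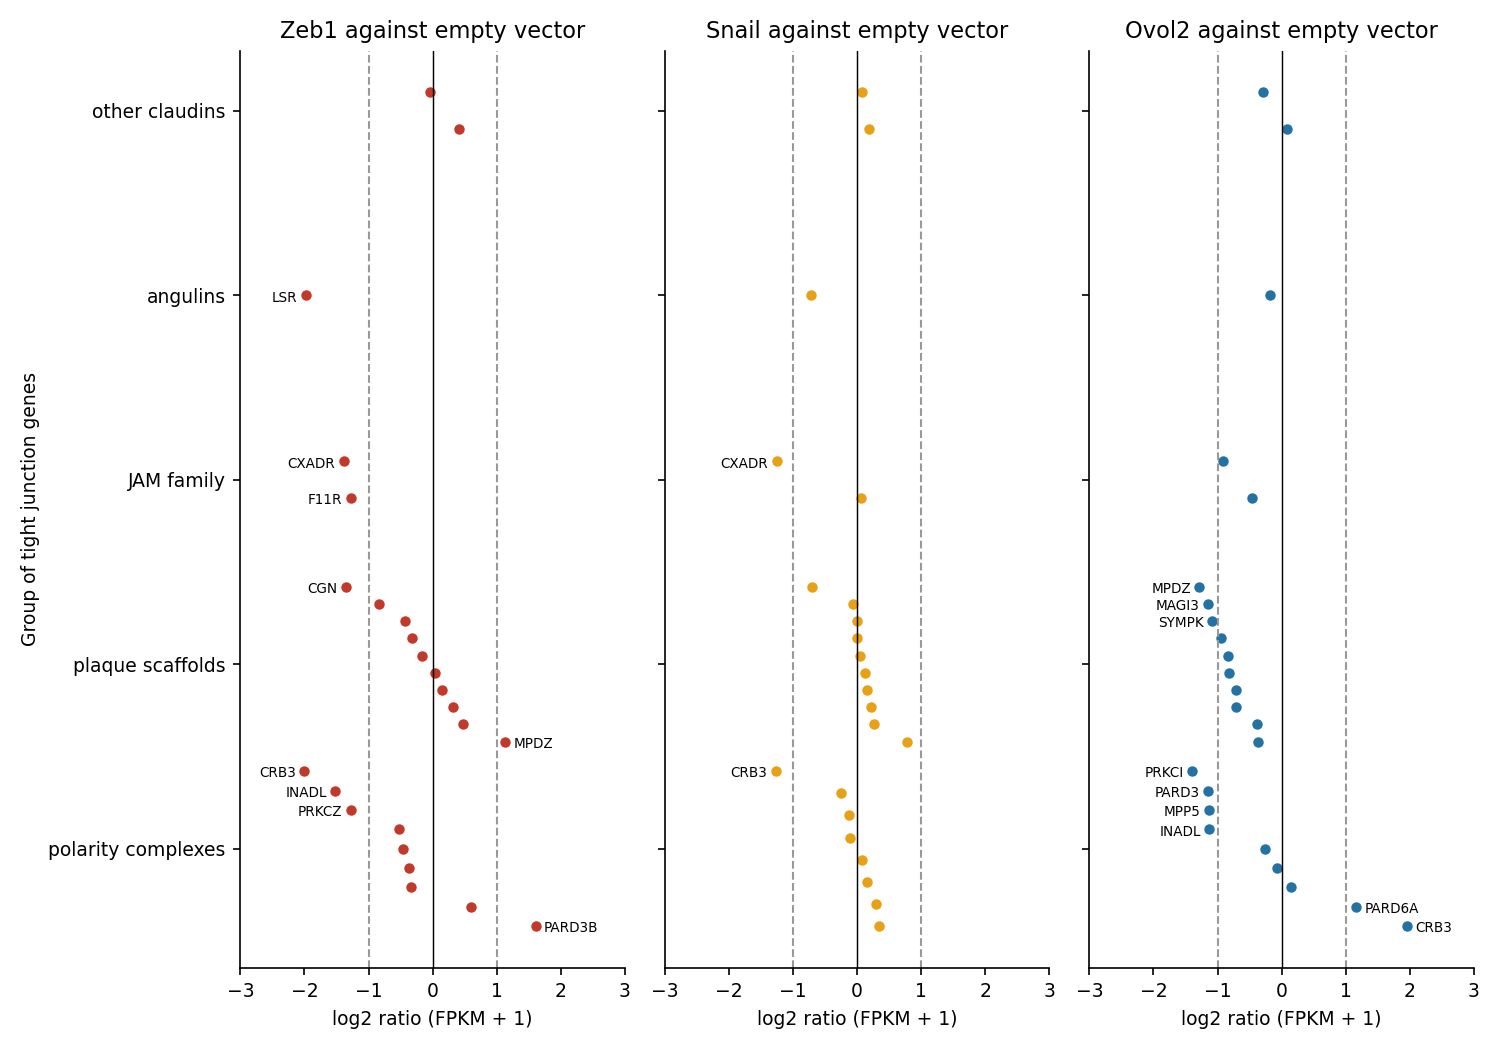
Log2 ratio of (FPKM + 1) to the EV library for the other tight junction genes that passed the filter, by group (1 point per gene, dashed lines at the 2-fold rule, genes past it named). Lower genes number 7 for Zeb1, 2 for Snail and 7 for Ovol2, and CRB3 lies left in the first 2 panels and right in the last.

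Genes with patterns most like CLDN4, CLDN1 and TJP1 were sought among 8271 genes at 5 FPKM or more in any library, by the Euclidean distance over the 3 log2 ratios to EV. This is a description over 4 libraries that share 1 control. Nearest to CLDN4 were KRT6B, a keratin of activated and suprabasal keratinocytes (distance 0.609), IVL, the cornified envelope protein involucrin (0.691), and LY6D, a surface protein of stratified epithelia (0.743). LY6D was at 15.4 FPKM with the empty vector, 2.37 with Zeb1, 4.32 with Snail and 224 with Ovol2. Nearest to CLDN1 were MMP28, a metalloproteinase of the epidermis (0.306), the lysolipid transporter MFSD2A (0.391) and LOC101928034 (0.424). Nearest to TJP1 were DLG5, a scaffold of the same MAGUK family (0.0385), KIDINS220 (0.0688) and MAP4K5 (0.0920). DLG5 was at 12.7 FPKM with the empty vector, 20.2 with Zeb1, 16.2 with Snail and 2.83 with Ovol2, close to TJP1 in level as well as in pattern. The distances used ratios without the length correction, under which the Ovol2 ratio of TJP1 went from -1.83 to -0.79.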

How the data were processed

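The authors deposited 3 tables, each with the EV library beside 1 factor library, 25360 rows and 25317 gene symbols. The deposited values were taken as FPKM, because hg19 and the tools Cufflinks, Cuffdiff and TopHat appear in the submitters' processing notes. No header names the unit, and tool versions, annotation, strand and scaling were not stated. Per the file headers, each table also holds the authors' own adjusted p-value, from 1 value per side. The EV values were the same in all 3 tables.

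Rows repeating a symbol (43) were summed. Log2 ratios used a pseudocount of 1 FPKM, a filter of 1 FPKM in either library and a 2-fold rule, which understates differences of low genes. Depth was estimated from the level worth 1 fragment in genes with 1 RefSeq-matched GENCODE 29 transcript, and fragments per gene from the median transcript length; these are estimates. Intervals are exact conditional 95% intervals. Steps were tested on simulated data. The 9 genes, the lists and the rules were chosen with earlier results of these data known. The genes named were the 9, up to 4 genes each way of the list with the largest called ratios, and the 3 nearest patterns of CLDN1, CLDN4 and TJP1. CLDN3, CLDN5, CLDN12, CLDN23, CGN and F11R were added after values were seen. One gene of the list is not reported here and was left out of its counts. Alternatives were another pseudocount (0.1 FPKM), no filter or 5 FPKM, 3 scalings and a length correction by lowess (statsmodels 0.14.6), for which 93.8% to 94.1% of kept genes had a length. Wherever RMRP and RPPH1 were left out, each library was also rescaled to a sum of 1000000. Deposited sums, with both RNAs, were between 290694 and 555645. Levels thus rose while the filter and pseudocount stayed at 1 FPKM, so more genes passed the filter. Python 3.11.15, numpy 2.4.6, pandas 2.3.3 and scipy 1.17.1 were used.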

Additional observations from a re-analysis of the deposited data

How the results depend on the processing

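Dropping the filter cannot change a count at a pseudocount of 1 FPKM; of the other 108 recomputed counts, 87 stayed within 1.5 times the reported count. The 24 called ratios of the 9 genes gave 120 values under the 5 choices that can change a ratio, 0 in the opposite direction and 3 under 2-fold. The pseudocount cannot reverse a direction, and centring moved ratios by less than 2-fold, so neither could have given an opposite value. The 3 were CLDN7 in Ovol2 against EV (0.87, RMRP and RPPH1 left out), and TJP1 in Ovol2 against EV (-0.79) and against Snail (-0.88), both with the length correction. With a filter of 5 FPKM, 2 of the 9 genes (CLDN4 and CLDN7) were higher in Ovol2 against EV, against Zeb1 and against Snail. Over all kept genes 8.18%, 18.3% and 9.97% were higher in these comparisons. In Zeb1 against Snail 0 of the 9 were lower, where 8.29% of kept genes were, but of the 9 only CLDN1, CLDN7 and TJP1 passed that filter there. Of the other junction genes 1 was higher with Zeb1 (5.11% of kept genes), 1 lower with Snail (1.43%) and 1 higher with Ovol2 (8.18%). Fewer genes pass that filter. Counts here and below include listed genes that the filter left out, so they are not shares of kept genes. With a pseudocount of 0.1 FPKM, 2 of the 9 were lower in Zeb1 against Snail, where 10.3% of kept genes were. Centring, upper quartile scaling, leaving out RMRP and RPPH1, and the length correction each gave 1 higher gene there, CLDN7. Over all kept genes these gave 4.46%, 3.72%, 8.05% and 4.04% higher, in the same order. Leaving out RMRP and RPPH1 gave 4 of the 9 lower with Ovol2 (MARVELD2 and MARVELD3 added), where 40.5% of all kept genes were lower. Of the other junction genes it gave 13 lower with Ovol2, and 4 lower with Snail, where 3.47% of kept genes were. With so large a share of all genes lower, the Ovol2 counts are no result about these genes. The length correction gave 1 of the 9 lower with Ovol2 against EV (CLDN1) and 0 against Snail, where 7.22% and 9.99% of kept genes were lower. It gave 1 other junction gene higher with Zeb1 (5.81% of kept genes) and 0 lower with Ovol2. INADL had no length and was not counted. Of those other genes, 0 were lower with Ovol2 after centring and 2 after upper quartile scaling, where 10.1% and 15.3% of kept genes were lower. The causes of these shifts between scalings were not tested. No paired analysis was possible because each group holds 1 library, and no library could be left out for the same reason. Depth limits CLDN8, TJP3 and OCLN outside the Ovol2 library, with about 4, 23 and 27 fragments or fewer.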
